A study of Mus musculus with 15 samples.

Results

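Cortical thymic epithelial cells (cTEC) were compared with epithelial cells of the colon across 19107 genes, with 3 libraries a side out of 15 in the series. Both came from untreated male C57BL/6J mice aged 8 weeks, were sorted by flow cytometry, and were pooled from 5 mice for each library, so that n = 3 pools per group and every SD is a spread among pools. The other 9 libraries, from medullary thymic epithelium (mTEC), skin and lung of the same kind of mice, entered the gene filter and the shared fit, and are quoted where they help to read a value. Library kits differed: cTEC, like mTEC and skin, went through KAPA RNA Stranded PolyA, whereas colon, like lung, went through KAPA RNA HyperPrep PolyA. The effects of kit and tissue therefore cannot be told apart in this contrast. In pooled cells, fewer cells of a type and less RNA per cell cannot be told apart either.

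The cortical epithelium of the thymus is a loose meshwork that faces no lumen. It attracts progenitors from the blood, induces T-cell fate through Notch ligands, and displays peptides made by its own proteasome subunit and proteases to immature T cells. The epithelium of the colon is a single polarised sheet that faces the microbiota: absorptive colonocytes take up salt, water and short-chain fatty acids, goblet cells secrete mucus, enteroendocrine cells release hormones, and the sheet is renewed from crypt stem cells. The contrast thus sets an epithelium without a barrier beside an absorptive and secretory one.

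The cTEC libraries held 14329113 to 17864005 reads in genes and the colon libraries 24223316 to 32410992. Log2 levels correlated at 0.961 to 0.981 between cTEC pools, 0.990 to 0.991 between colon pools and 0.716 to 0.739 between the groups. These correlations are across genes, which are not independent replicates. The cTEC pool numbered 3 stood somewhat apart from pools 1 and 2. Reads with several genomic matches were 8.61 to 10.8% of the reads in cTEC and 16.5 to 17.98% in colon, which bears on genes with near-identical copies, as described with glycolysis. Levels are given as CPM (gene reads scaled to a common library total, with TMM factors), and a fold is always cTEC over colon on the log2 scale with its standard error, from edgeR's quasi-likelihood test, and p-values were adjusted by Benjamini-Hochberg across all 19107 genes.

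Of these genes, 6606 were higher in cTEC than in colon (34.6% of genes tested) and 5827 were lower (30.5%) at an adjusted p under 0.05 in the edgeR test. Against a threshold of 2-fold, 4350 genes were higher (22.8%) and 3102 lower (16.2%). The median log2 fold of all genes tested was 0.14. With upper quartile scaling it was 0.34, so small folds depend on the scaling. Fitted on the 6 cTEC and colon libraries alone, 16716 genes were tested, with 6387 higher, 6125 lower and a median log2 fold of 0.022. Without cTEC pool 3 there were 6477 genes higher and 5409 lower. The counts of gene lists are to be read against these shares.

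**Figure D1:**
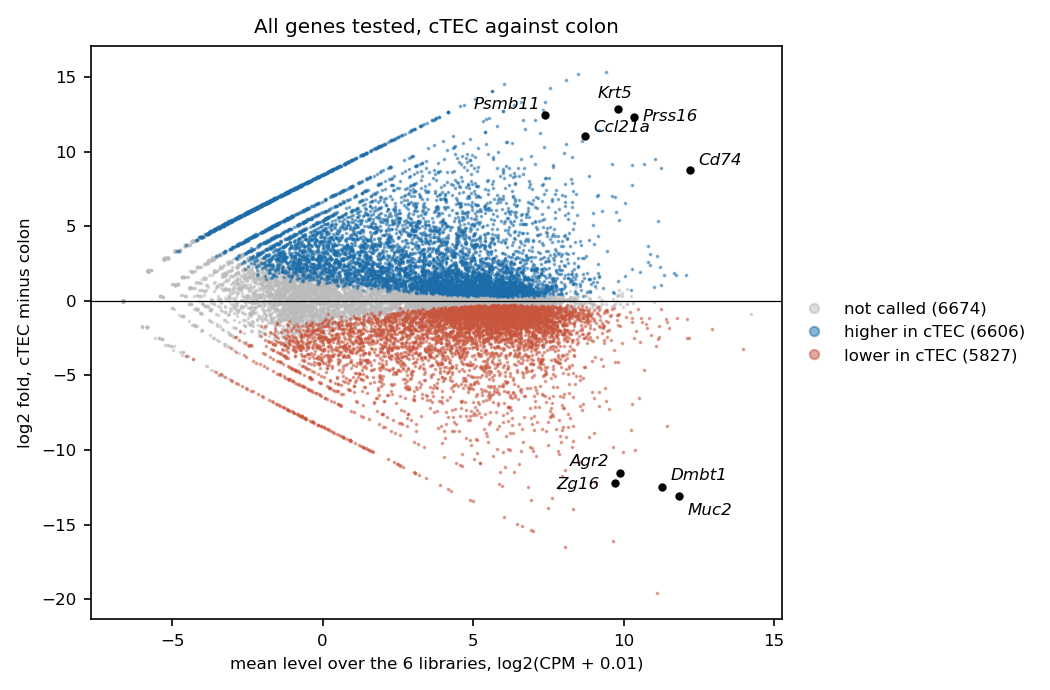
Log2 fold of cTEC over colon (vertical axis) against the mean level over the 6 libraries (horizontal axis, log2 of CPM + 0.01) for 19107 genes. Blue points are the 6606 genes higher in cTEC, red points the 5827 genes lower, and grey points the 6674 genes not called; the straight diagonal rows hold genes with no or hardly any reads in a group.

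The largest differences were taken among genes with at least 10 reads in the lower group. Thymic and basal-type epithelial genes were among those higher in cTEC, and secreted products of the gut among those lower. Krt5, a keratin of basal epithelium, stood at 1901, 2313 and 1173 CPM in the cTEC pools and at 0.134, 0.400 and 0.134 in the colon pools (log2 fold 12.86 ± 1.19, adjusted p = 3.08e-07). Muc2, the gel-forming mucin of colonic mucus, was the reverse, with 0.619, 0.947 and 1.01 CPM in cTEC and 6619.9, 7904 and 7549.6 in colon (log2 fold -13.07 ± 0.69, adjusted p = 1.44e-09). No cTEC pool overlapped a colon pool for either gene, but this was a condition of the choice, as was passing the test against 2-fold. The other genes of the 10 largest increases, among genes with at least 50 CPM in cTEC and 10 reads over the colon pools, were Prss16, Krt17, Ccl21a, Gas1, Ifit3, Diras2, Snhg11, Dsc3 and Ifi27l2a, with log2 folds of 9.66 to 12.31. Ccl21a is a chemokine of the thymic medulla, Dsc3 a desmosomal cadherin, and Ifit3 and Ifi27l2a are interferon-induced. The 10 largest decreases, among genes with at least 50 CPM in colon and 10 reads over the cTEC pools, also held Dmbt1, Zg16, Reg4, Agr2, Hsd11b2, Gsdmc4, Phgr1, Guca2a and Clca1, with log2 folds of -12.46 to -10.15. Dmbt1 and Zg16 are secreted proteins that bind bacteria, Agr2 is a disulfide isomerase needed for mucin folding, Hsd11b2 inactivates glucocorticoids before they reach the mineralocorticoid receptor, and Guca2a is the peptide hormone guanylin.

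The most abundant messages per unit of transcript length included those of presentation in cTEC and of mucus, actin and keratin in colon. Only protein-coding genes outside the mitochondrial genome were ranked. In TPM, which divides reads by transcript length and scales them to a common total, the cTEC pools were led by Cd74, the invariant chain of MHC class II, at 13746 ± 2073 TPM (SD, n = 3), followed by Ccl21a at 10436 ± 2944. B2m, H2-Ab1, Ifitm3, Ly6e, H2-Aa, Fos, Eef1a1 and H2-K1 completed the first 10, at 4567 to 6838 TPM. In colon the first was Eef1a1, a translation factor, at 8444 ± 724 TPM. Mptx1, a secreted pentraxin of the gut, followed at 7139 ± 1943 TPM in colon, with no read in cTEC. Mptx1 was therefore at least 86791-fold higher in colon, with cTEC set to a floor of 3 reads over the group. Muc2 at 5201 ± 693 and Zg16 at 3363 ± 1829 TPM were also among the first 10, beside the actins Actb and Actg1, the keratins Krt8 and Krt19, Tpt1 and Sprr2a2. Sprr2a2 has close copies. The gene counts held 133 of its reads over the colon pools, 0.0977% of the reads that RSEM estimated. Its rank therefore rests on how RSEM divided shared reads. Its fold was -4.00 in gene counts and -2.42 in RSEM estimated counts, and it did not pass in DESeq2 (adjusted p = 0.455). Other ranks rest in part on this division of reads too. In colon the gene counts held 0.621% of the estimated reads of Actg1, 2.69% of Tpt1 and 46.0% of Eef1a1. For Ccl21a in cTEC the share was 17.0%.

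**Figure D2:**
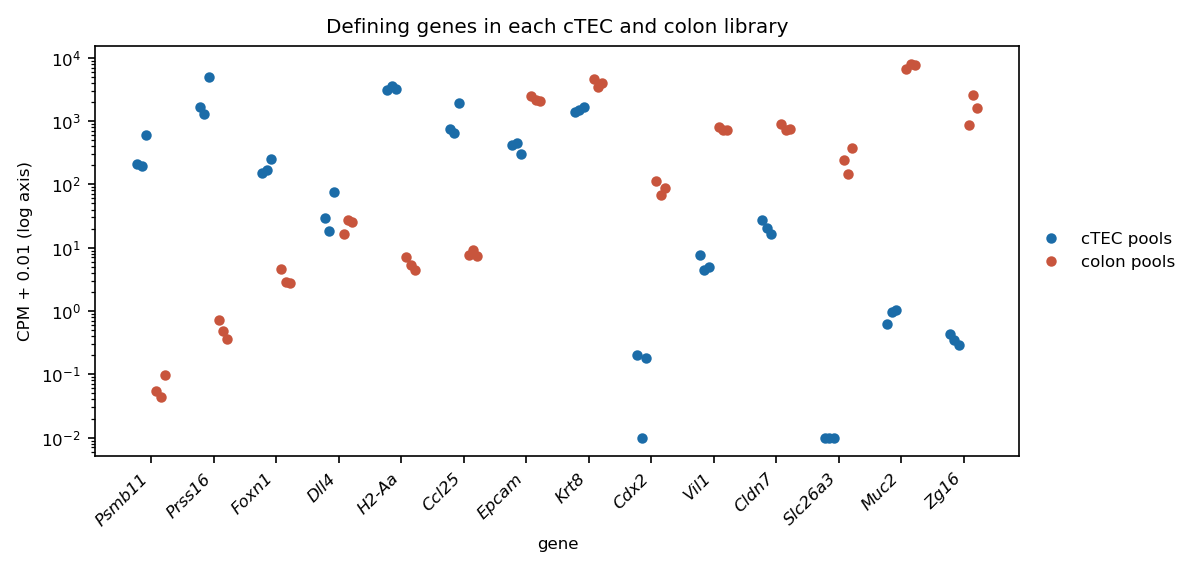
CPM + 0.01 on a log axis for 14 genes that define cTEC, colon or epithelium in general; each point is 1 pool, blue for cTEC and red for colon. Only Dll4 overlaps between the groups, and Epcam and Krt8 are abundant in both.

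The labels were checked against defining genes. Psmb11, the thymus-specific proteasome subunit beta5t (chromosome 14, 54621433 to 54629556 on GRCm38, by GENCODE M21), read 210.4, 193 and 593 CPM in cTEC and 0.0448, 0.0333 and 0.0892 in colon. The highest cTEC value was in pool 3, and all were far above colon (log2 fold 12.45 ± 0.71, adjusted p = 2.55e-09). Prss16, the thymus-specific serine protease, read 1685, 1313 and 4884 CPM in cTEC and 0.716, 0.467 and 0.357 in colon, again highest in pool 3. Foxn1, the transcription factor required for thymic epithelium, averaged 192 ± 53.5 CPM (SD, n = 3) in cTEC and 3.41 ± 1.04 in colon. Of the 15 cortical marker genes listed, 13 were higher in cTEC (34.6% of all genes were), with a median log2 fold of 5.93.

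The chemokines Ccl25 and Cxcl12, which draw progenitors to the cortex, averaged 1121 and 1111 CPM in cTEC against 8.12 and 8.71 in colon. Kitl and Dll4 departed from the pattern. Kitl, the ligand of the Kit receptor on progenitors, was lower in cTEC, at 50.7, 33.7 and 49.5 CPM against 136, 149 and 141 in colon (log2 fold -1.67 ± 0.24, adjusted p = 2.30e-05). Dll4, the Notch ligand that commits progenitors to the T lineage, read 29.1, 17.99 and 74.3 CPM in cTEC and 16.3, 27.4 and 25.7 in colon. The groups overlapped, and the difference did not pass the test (log2 fold 0.80 ± 0.65, adjusted p = 0.287).

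The colon pools carried markers of the absorptive, goblet and enteroendocrine lineages of the colonic sheet. All 20 listed genes of absorptive colonocytes and all 18 of goblet cells were lower in cTEC, with median log2 folds of -6.65 and -8.40 (-8.36 for goblet genes with genes without reads at their bound). Of all genes tested, 30.5% were lower. Of 12 enteroendocrine genes, 9 were lower, 2 did not pass and 1, the peptide hormone gene Cck, was higher. Vil1, the villin that bundles microvillar actin, read 813, 716 and 713 CPM in colon and 7.57, 4.46 and 4.93 in cTEC (log2 fold -7.04 ± 0.31, adjusted p = 2.64e-10). Slc26a3, the apical chloride and bicarbonate exchanger (chromosome 12, 31390871 to 31473917 on GRCm38), read 245, 143 and 372 CPM in colon and had no read in any cTEC pool, so that it was at least 4592-fold higher in colon.

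The smallest gap among goblet genes was that of Fcgbp, a mucus-associated protein, at 1265 and 4549 CPM in cTEC and colon (log2 fold -1.85 ± 0.41, adjusted p = 0.00109). The mTEC pools held more Fcgbp than colon, with a mean of 5485 CPM. Chga, a granule protein of endocrine cells, was at 169 and 226 CPM in cTEC and colon and did not pass (log2 fold -0.42 ± 0.44, adjusted p = 0.413), whereas Chgb was at 2.86 and 563 CPM (log2 fold -7.61 ± 0.46, adjusted p = 1.99e-08). The hormone genes Gcg, Pyy and Insl5 were at 183, 114 and 127 CPM in colon and at 0.583, 1.43 and 0.459 in cTEC.

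Transcription factors that specify each tissue differed almost without exception in its favour. Of 20 intestinal transcription factors, 19 were lower in cTEC and Klf4 did not pass. Cdx2, the homeobox factor of hindgut identity, read 112, 68.8 and 87.0 CPM in colon and 0.190, 0 and 0.168 in cTEC (log2 fold -9.44 ± 0.55, adjusted p = 9.47e-08). Hnf4a, a nuclear receptor of enterocyte genes, was at 617 CPM in colon and 0.692 in cTEC. The bile acid receptor Nr1h4 had no read in cTEC and was at least 1089-fold higher in colon. Of 15 thymic and pharyngeal factors, 14 were higher in cTEC, and Hoxa3 did not pass. Pax1, a paired-box factor of the pharyngeal pouches, read 589.5, 695 and 871 CPM in cTEC against 1 read in all colon pools together (ratio 53171-fold, with a 95% counting interval of 9543 to 2100199.5). Trp63, which maintains stratified epithelium, was likewise at 374 CPM in cTEC, with 1 read over the colon pools.

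The promoters of Slc26a3, Cdhr2, Muc13 and Fabp2 hold letters that intestinal factors are known to bind, and they are printed because these genes were lower in cTEC by more than 2-fold. Each window runs 5′ to 3′ on the strand of its gene, lies upstream of the RefSeq start site, and has in capitals the match to a core or to its reverse complement. HNF1 was searched as GTTAATNAT, HNF4 as CAAAGTCCA and CDX as GCAATAAA, on both strands of the 300 bases around the RefSeq start (GRCm38.p6).
Slc26a3 (chr12:31438105-31438173, gene on the plus strand): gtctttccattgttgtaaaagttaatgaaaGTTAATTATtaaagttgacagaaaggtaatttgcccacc
Cdhr2 (chr13:54701379-54701447, gene on the plus strand): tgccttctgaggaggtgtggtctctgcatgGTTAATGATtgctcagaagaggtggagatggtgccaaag
Muc13 (chr16:33794273-33794341, gene on the plus strand): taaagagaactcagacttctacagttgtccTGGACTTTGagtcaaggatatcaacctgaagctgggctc
Fabp2 (chr3:122894977-122895044, gene on the plus strand): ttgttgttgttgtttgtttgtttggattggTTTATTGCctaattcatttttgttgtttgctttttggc
In Slc26a3 and Cdhr2 the capitals mark HNF1, in Muc13 HNF4 and in Fabp2 CDX. Among 18 colonocyte genes with a promoter in the table, the HNF1 core was found in 2 (11.1%, against 0.659% of 13502 promoters of genes tested), the CDX core in 2 (11.1%, against 0.681%) and the HNF4 core in 1 (5.56%, against 0.533%). None of the 3 cores was found in the 6 goblet promoters, and of the 20 promoters of drug and xenobiotic handling 1 held HNF4. The CDX core was also in 1 of 14 promoters of MHC class I presentation (7.14%), a list mostly higher in cTEC. The 26 promoters of interferon-stimulated genes and the 11 of cortical markers held none of the 3 cores. Of 2196 promoters of genes lower in cTEC by more than 2-fold, 1.18% held HNF1, 1.05% HNF4 and 1.05% CDX. A match describes letters, not a bound site. Cdhr2, a protocadherin that links microvilli, was at 9.51 and 308 CPM in cTEC and colon; Muc13, a membrane mucin, at 5.87 and 2413; and Fabp2, a fatty acid carrier, at 1.02 and 141.

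Hox genes, which record position along the body axis, divided by number within the clusters. Of 34 tested, 20 were lower in cTEC and 10 higher. In the Hoxa cluster, Hoxa2 and Hoxa4 were higher in cTEC, while Hoxa5, Hoxa6, Hoxa7, Hoxa9, Hoxa10, Hoxa11 and Hoxa13 were lower. Hoxa9 read 31.0, 32.6 and 34.6 CPM in colon, against 1 read in all cTEC pools. Hoxa10 read 26.6, 30.8 and 31.9 CPM in colon and Hoxd13 read 26.3, 48.2 and 41.1, both with no read in cTEC, which puts them at least 566-fold and 748-fold higher in colon. Hoxb13 was the most abundant, at 234, 236 and 246 CPM in colon and 0.286, 0.223 and 0.280 in cTEC (log2 fold -9.79 ± 0.38, adjusted p = 6.54e-10), and Hoxb2 went the other way, at 5.31 and 0.312 CPM in cTEC and colon (log2 fold 4.05 ± 0.41, adjusted p = 8.91e-07). The Hoxc cluster was the exception to the ordering by number. Of its 8 genes tested, 6 were higher in cTEC, including the posterior Hoxc10 and Hoxc11, and the colon pools held few reads of any. Hoxc11 read 5.90, 5.07 and 12.5 CPM in cTEC. The family was formed from gene symbols after the data were seen.

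**Figure D3:**
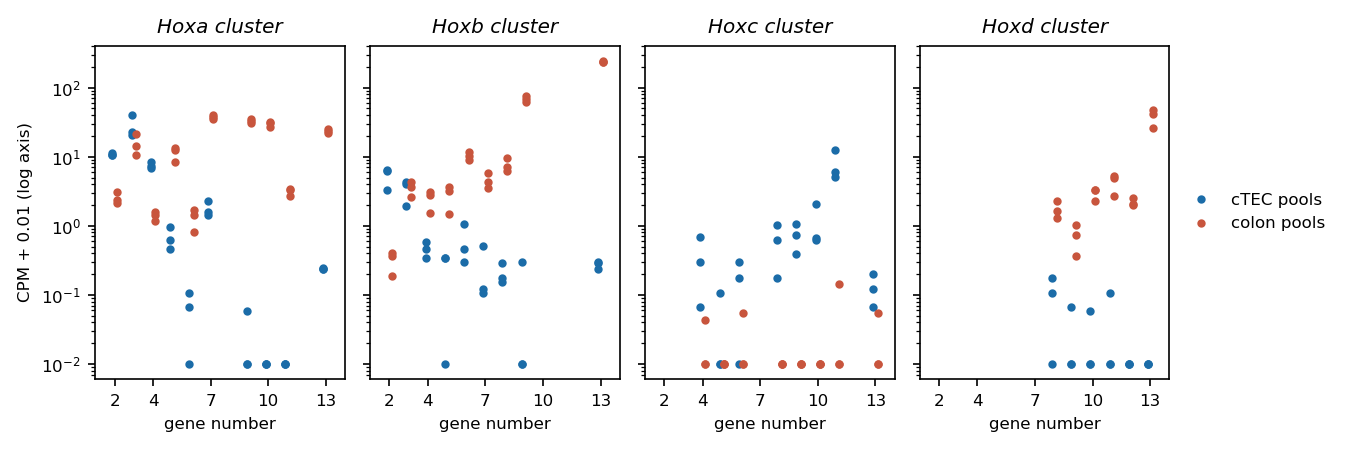
CPM + 0.01 on a log axis for Hox genes numbered 2 or higher, by cluster and by number within the cluster; each point is 1 pool, blue for cTEC and red for colon. From number 5 upward, points of Hoxa, Hoxb and Hoxd lie higher in colon, and most of those of Hoxc lie higher in cTEC.

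Of 14 keratins listed, 8 were higher in cTEC and 4 lower; of all 49 tested by symbol, 21 were higher, 9 lower and 19 not called. Krt17 and Krt14, of basal layers, were at 1171 and 610.2 CPM in cTEC and 0.397 and 2.10 in colon. Krt20, of differentiated enterocytes, was at 3.11 and 188 CPM in cTEC and colon, and Krt19 at 126 and 3163. The simple-epithelium pair went in opposite directions: Krt8 read 1394, 1477 and 1694 CPM in cTEC and 4677, 3411 and 3974 in colon (log2 fold -1.40 ± 0.31, adjusted p = 0.00123), whereas Krt18 read 2239.7, 2734 and 3011 and 1422, 1473 and 1384 (log2 fold 0.90 ± 0.26, adjusted p = 0.00661). Both Krt8 and Krt18 were abundant in every pool.

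Most listed tight junction genes were lower in cTEC, while the claudins as a family went both ways. Tight junctions seal the space between cells through claudins and occludin, held by scaffold proteins. Of 24 listed genes tested, 21 were lower in cTEC, 2 were higher and 1 did not pass, with a median log2 fold of -3.79. Cldn7, a claudin of the colonic sheet, read 27.4, 20.7 and 16.1 CPM in cTEC and 888, 711 and 755 in colon (log2 fold -5.19 ± 0.39, adjusted p = 3.32e-08). Occludin (Ocln) read 7.24, 5.85 and 3.81 CPM in cTEC and 336, 279 and 269 in colon (log2 fold -5.71 ± 0.34, adjusted p = 3.84e-09). Neither overlapped. The pore-forming Cldn2 and Cldn15 were at 233 and 156 CPM in colon and 1.54 and 0.655 in cTEC. The scaffold genes Tjp1 and Cgn differed less, with log2 folds of -2.30 and -2.25. Cldn1, the claudin that seals stratified epithelium, was the reverse, at 95.4, 99.6 and 76.0 CPM in cTEC and 0.179, 0.500 and 0.268 in colon (log2 fold 8.07 ± 0.87, adjusted p = 1.58e-06). In skin it averaged 510.5 CPM. Over all 19 claudins tested, 9 were lower in cTEC and 7 higher, with a median log2 fold of -0.60; besides Cldn1, those higher were Cldn5, Cldn6, Cldn9, Cldn11, Cldn13 and Cldn34c1, each at most 6.67 CPM on average in cTEC. The lung pools, made with the same kit as colon, averaged 139 CPM of Cldn7 and 313 of Ocln. What part the kit had in these values was not tested.

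Adherens junctions tie the actin belts of neighbouring cells. Of 14 genes, 10 were lower and 4 higher. Cdh1 (E-cadherin) read 555, 533 and 479.8 CPM in cTEC and 2422, 2104 and 2000.2 in colon (log2 fold -2.06 ± 0.18, adjusted p = 1.66e-07), and Epcam read 422, 445 and 301 and 2441, 2118 and 2042 (log2 fold -2.50 ± 0.21, adjusted p = 1.45e-07), so both remained abundant in cTEC. Cdh17, the liver-intestine cadherin, was at 4.81 and 785 CPM in cTEC and colon. The P-cadherin gene Cdh3 and N-cadherin gene Cdh2 were higher in cTEC, Cdh3 at 232 and 0.873 CPM in cTEC and colon and Cdh2 at 16.5 and 0.784, as was Nectin1 at 427 and 21.5. Desmosomes, the spot junctions anchored on keratin, had 6 of 14 genes higher and 5 lower, beside 34.6% and 30.5% of all genes. Their median log2 fold was 0.26, beside 0.14 over all genes. Of the cadherins of simple epithelium, Dsg2 was at 129 and 764 CPM in cTEC and colon and Dsc2 at 131 and 296, whereas Dsc3, of stratified epithelium, was at 239.8 and 0.286.

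Of 25 genes of hemidesmosomes and basement membrane, 17 were higher in cTEC and 3 lower. Lama3, the laminin chain of epithelial basement membrane, read 358, 286 and 349 CPM in cTEC and 9.09, 7.37 and 24.0 in colon (log2 fold 4.62 ± 0.38, adjusted p = 9.94e-08). Col4a1 and Col4a2, which form the collagen IV sheet, were at 522 and 389 CPM in cTEC and 30.2 and 17.4 in colon. Bcam, a laminin receptor, was at 527 and 9.68 CPM. The integrin gene Itga6 was lower in cTEC (log2 fold -0.93 ± 0.28, adjusted p = 0.00898), and its partner Itgb4 did not pass (log2 fold 0.66 ± 0.33, adjusted p = 0.0941).

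The apical surface carries the absorptive machinery in colon. Of 25 genes of the brush border and of apical polarity, 18 were lower in cTEC, 2 were higher and 5 did not pass. Ceacam1, an adhesion molecule of the apical membrane, read 4.05, 2.67 and 0.952 CPM in cTEC and 3091, 2585 and 2391 in colon (log2 fold -10.02 ± 0.87, adjusted p = 1.74e-07). Of the myosins of microvilli, Myo1a was at 3.50 and 501 CPM in cTEC and colon and Myo7b at 0.989 and 278. Ezr (ezrin), which links membrane to actin in many epithelia, differed less, at 446 and 1443 CPM (log2 fold -1.69 ± 0.17, adjusted p = 6.24e-07). The members higher in cTEC were Cobl, an actin nucleator, and Anpep, a peptidase, with log2 folds of 0.52 and 0.87. The Anpep call was lost without cTEC pool 1 and without colon pools 1 or 3, with log2 folds of 0.72 to 0.82.

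Ion and water transport had a median log2 fold of -4.45 over 31 genes, of which 24 were lower in cTEC and 5 higher. Car1, the carbonic anhydrase that supplies bicarbonate and protons for salt uptake, read 2644, 540.3 and 1662 CPM in colon and 1 read over the cTEC pools. The colon pools of Car1 spread widely and all lay far above every cTEC pool (ratio of colon to cTEC 85527-fold, with a 95% counting interval of 15350.0 to 3378153). Cftr, the secretory chloride channel, read 1.57, 0.669 and 0.0560 CPM in cTEC and 365, 355 and 309 in colon (log2 fold -8.75 ± 0.61, adjusted p = 1.76e-08). Slc12a2, which loads chloride across the basal membrane, read 89.1, 69.5 and 67.6 and 1077, 1251 and 1103 (log2 fold -3.92 ± 0.17, adjusted p = 2.57e-10). Atp1b1, the beta subunit of the sodium pump that drives these steps, differed less, with a log2 fold of -2.82. The water channels Aqp8, Aqp4 and Aqp1 were lower in cTEC, and Aqp3 was higher, at 20.4 and 0.204 CPM in cTEC and colon.

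The epithelial sodium channel stood out from this pattern. Its alpha subunit Scnn1a read 198, 259.7 and 325 CPM in cTEC and 153, 122 and 140.4 in colon and was higher in cTEC (log2 fold 0.91 ± 0.20, adjusted p = 0.00109). The gamma subunit Scnn1g was higher as well, at 14.5 and 1.52 CPM, and the beta subunit Scnn1b, at 4.52 and 7.15 CPM, did not pass. The beta and gamma subunits were low in colon beside lung, where Scnn1b and Scnn1g averaged 562 and 1245 CPM.

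Uptake of nutrients, bile acids and metals divided more. Of 34 genes tested, 21 were lower in cTEC, 6 were higher and 7 did not pass. The butyrate carriers showed large gaps: Slc16a1 read 4.14, 2.17 and 1.40 CPM in cTEC and 474, 276 and 393 in colon (log2 fold -7.19 ± 0.48, adjusted p = 1.22e-08), and Slc5a8 was at 3.89 and 493 CPM. Slc5a1, the sodium-glucose cotransporter, was at 0.943 and 153 CPM and Slc6a14, an amino acid carrier, at 0.903 and 639. Slc40a1, the iron exporter ferroportin, was at 1.203 and 91.2 CPM. The members higher in cTEC included Slco2a1, a prostaglandin carrier, at 571, 587 and 676 CPM in cTEC and 22.8, 13.2 and 30.2 in colon (log2 fold 4.79 ± 0.34, adjusted p = 2.45e-08), and Abca1, the cholesterol exporter, at 126 and 15.9 CPM.

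Among all 334 genes tested whose symbols begin with Slc or Slco, 139 were lower in cTEC and 102 higher, with a median log2 fold of -0.15, so the carriers as a whole did not move like the absorptive list. Slc46a2, a thymic stromal transporter named here after its values were seen, read 428, 529 and 663 CPM in cTEC against 1 read over the colon pools. Slc2a4, the insulin-responsive glucose carrier, was at 117 and 1.19 CPM in cTEC and colon, and the general carrier Slc2a1 at 89.0 and 331. The Slc35 carriers that bring sugar nucleotides into the Golgi were among those lower in cTEC, with Slc35a3 at 17.0 and 489.8 CPM and Slc35a1 at 15.1 and 242.

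Genes of mitochondrial fuel use were lower in cTEC, by smaller folds than the transport genes. All 20 genes of pyruvate dehydrogenase and the citric acid cycle were lower, with a median log2 fold of -1.46 and a range of -2.70 for Idh3a to -0.57 for Sdhc. Citrate synthase (Cs) read 171, 149 and 161 CPM in cTEC and 726, 553 and 597 in colon, without overlap (log2 fold -1.96 ± 0.15, adjusted p = 3.83e-08). In lung, with the same kit as colon, Cs averaged 196 CPM, and in skin, with the same kit as cTEC, 454. The part of the kit in the Cs values was not tested. Of 20 genes of fatty acid oxidation, 16 were lower and 4 did not pass, of which 2 were higher with upper quartile scaling. Acads, which takes butyrate and other short chains, had the largest gap, at 16.6, 20.7 and 19.9 CPM in cTEC and 217, 153 and 189 in colon (log2 fold -3.29 ± 0.24, adjusted p = 2.37e-08).

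Bdh1, which interconverts the ketone bodies, read 6.90, 5.01 and 8.12 CPM in cTEC and 199, 146 and 157 in colon (log2 fold -4.65 ± 0.51, adjusted p = 1.79e-06). Pparg, a nuclear receptor for fatty acids, was at 0.376 and 72.2 CPM. Of 14 genes of ketone bodies and the PPAR response, 11 were lower and 2, Angptl4 and Acot12, higher. Of 22 nuclear genes of the respiratory chain, 17 were lower and 2 higher, Ndufs7 and Cycs. The Ndufs7 call was lost without cTEC pool 2 and without colon pool 2 (log2 folds 0.42 and 0.44), and the log2 fold of Cycs was 0.68 in gene counts and -1.23 in RSEM estimated counts. Atp5b, a subunit of ATP synthase, read 657, 689 and 707 CPM in cTEC and 2032, 1674 and 1736 in colon (log2 fold -1.41 ± 0.16, adjusted p = 3.02e-06). The 7 protein-coding genes of the mitochondrial genome that were tested were all lower too, with a median log2 fold of -2.43. Mitochondrial transcripts took 1.08 to 1.70% of gene reads in cTEC and 5.80 to 7.86% in colon. They took 2.97 to 5.29% in lung, made with the same kit as colon, and 0.966 to 1.29% in skin, made with that of cTEC; the part of the kit in this was not tested.

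Directions in glycolysis depended on how reads were counted. The deposited gene counts keep reads with a single genomic match, whereas the RSEM estimates divide shared reads among copies, and enzymes such as Gapdh have many processed pseudogenes. In gene counts, 6 of 17 genes were higher in cTEC and 9 lower; in estimated counts, 2 were higher and 10 lower. Gapdh read 286, 348 and 289 CPM in cTEC and 11.1, 8.50 and 9.90 in colon in gene counts (log2 fold 4.97 ± 0.19, adjusted p = 1.15e-10), but its log2 fold in estimated counts was -0.019 (adjusted p = 0.92). The gene counts held 69.4% of its estimated reads in cTEC, 63.7% in skin, 2.16% in colon and 3.76% in lung. The share was thus lower in both groups made with the HyperPrep kit. For Pgk1 the log2 fold was 0.63 in gene counts and -1.82 in estimated counts, for Pgam1 1.27 and -0.20, and for Eno1 0.85 and 0.24.

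Hk2, Ldha, Ldhb and Eno2 had folds that differed little between count types. Hk2, the hexokinase that commits glucose, read 28.7, 42.3 and 19.3 CPM in cTEC and 668, 553 and 558 in colon (log2 fold -4.30 ± 0.42, adjusted p = 5.24e-07, and -4.29 in estimated counts). Lactate dehydrogenase differed by subunit: Ldha, the muscle form, read 226, 230.1 and 175 CPM in cTEC and 636, 462 and 553 in colon (log2 fold -1.39 ± 0.16, adjusted p = 3.61e-06, and -1.43 in estimated counts), and Ldhb, the heart form, read 179, 195 and 258 and 6.53, 5.50 and 5.71 (log2 fold 5.15 ± 0.18, adjusted p = 6.95e-11, and 5.23 in estimated counts). Eno2, the neuronal enolase, was higher in cTEC at 8.96 and 0.453 CPM.

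The same check was run on every gene. Of 18572 genes tested in both count types, 613 (3.30%) had log2 folds that differed by more than 1, and 40 were called in opposite directions, while 11730 were called in the same direction. Among the genes named here, Actg1 was 2.57 in gene counts and -1.57 in estimated counts, and Tpt1 4.31 and 0.05. Of 73 ribosomal protein genes, 46 were higher and 5 lower in cTEC in gene counts, but 17 higher and 20 lower in estimated counts, so no direction is given for them. Among the lists, only those of glycolysis and the nuclear respiratory chain had counts that differed by more than 2 genes between count types.

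**Figure D4:**
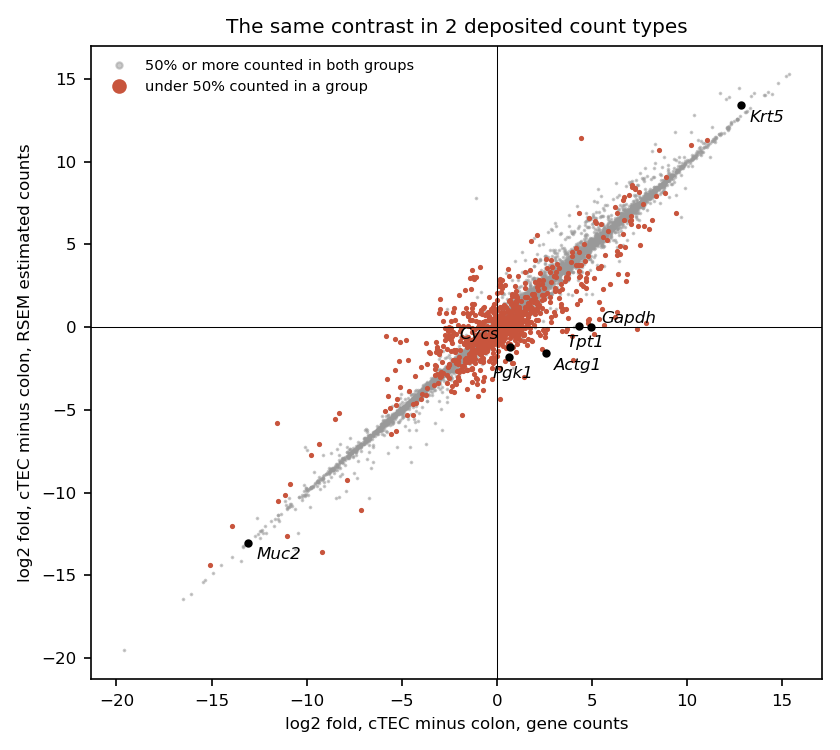
Log2 fold of cTEC over colon in the gene counts (horizontal) and in the RSEM estimated counts (vertical) for 18572 genes tested in both. Red points are genes whose gene counts held under 50% of the estimated reads in a group; Gapdh, Tpt1 and Actg1 lie far to the right of the diagonal, and Muc2 and Krt5 lie near it.

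Lipid and drug metabolism were lower in cTEC as well. Of 21 genes of sterol synthesis, 19 were lower, and only Sc5d was higher (log2 fold 0.56 ± 0.14, adjusted p = 0.00298). Cyp51, a demethylase of the pathway, read 35.4, 33.3 and 16.4 CPM in cTEC and 252, 190.0 and 215 in colon (log2 fold -2.95 ± 0.31, adjusted p = 1.02e-06). Of 24 genes of drug and xenobiotic handling, 17 were lower, 2 higher and 5 did not pass. Cyp2c55, a cytochrome P450 of the colon, read 767, 212 and 598 CPM in colon with no read in cTEC, so that it was at least 9350.1-fold higher in colon. Abcb1a, the efflux pump P-glycoprotein, read 0.762, 0.167 and 0.280 CPM in cTEC and 521, 358 and 486 in colon (log2 fold -10.07 ± 0.74, adjusted p = 3.16e-08). Ephx1 and Nqo1, enzymes of epoxide and quinone detoxification, were higher in cTEC, Ephx1 at 226 and 22.6 CPM in cTEC and colon and Nqo1 at 138 and 39.5.

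Of 24 genes of the secretory pathway and the unfolded protein response, 18 were lower in cTEC and 6 did not pass (1 was higher with upper quartile scaling and 1 without colon pool 2), with a median log2 fold of -0.96. Hspa5, the chaperone of the endoplasmic reticulum, read 921, 1036 and 583 CPM in cTEC and 1784, 3573 and 1459 in colon (log2 fold -1.42 ± 0.31, adjusted p = 0.00108). Ern2, the goblet-cell stress sensor, was at 164 CPM in colon with 3 reads over the cTEC pools, whereas the ubiquitous sensor Ern1 was at 21.9 and 67.5 CPM in cTEC and colon. The transferases that start O-glycans on mucins were divided: of 18 Galnt genes tested, 10 were lower and 5 higher. Galnt7 was at 12.4 and 414 CPM in cTEC and colon, Galnt6 at 4.13 and 235 and Galnt18 at 112 and 1.04.

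Of 21 effectors of mucosal defence, 14 were lower in cTEC and 5 higher. Pigr, the receptor that carries IgA into the lumen, read 21.8, 11.7 and 16.4 CPM in cTEC and 6572, 4830.1 and 5061 in colon (log2 fold -8.36 ± 0.61, adjusted p = 2.72e-08). Lypd8, which keeps flagellated bacteria off the sheet, was at 20.1 and 2485 CPM, and Duox2, an oxidase that makes hydrogen peroxide, at 1.17 and 94.4. The 5 that were higher in cTEC were Lcn2, which binds bacterial siderophores, Saa3, Reg3g, Nos2 and Sectm1a. Lcn2 read 45.6, 45.8 and 23.0 CPM in cTEC and 0.0448, 0.167 and 0.268 in colon (log2 fold 7.84 ± 0.58, adjusted p = 3.00e-08), and Reg3g, a bactericidal lectin, read 87.2, 35.2 and 52.4 and 8.55, 2.73 and 3.52 (log2 fold 3.57 ± 0.77, adjusted p = 9.13e-04). In mTEC Reg3g averaged 179 CPM.

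Of 22 sensors of microbes, 10 were lower in cTEC (30.5% of all genes were) and 6 higher (34.6%). The inflammasome genes Nlrp6, Naip1 and Nlrc4 were at 141, 110.5 and 86.2 CPM in colon and 0.990, 0.287 and 0.843 in cTEC. The gasdermin Gsdmc4, of a family whose members form membrane pores, read 0.428, 0.836 and 0 CPM in cTEC and 1027, 507 and 733 in colon (log2 fold -10.79 ± 0.68, adjusted p = 2.95e-08). Its copies Gsdmc2 and Gsdmc3 share sequence with it, so the division of reads among them is uncertain. The cytosolic nucleic acid sensors Ddx58, Zbp1 and Ifih1 were higher in cTEC, with log2 folds of 2.92, 4.17 and 0.59. All 3 are themselves induced by interferon. Aim2, another cytosolic sensor of the list, was lower, at 2.35 and 75.7 CPM in cTEC and colon (log2 fold -5.00 ± 0.29, adjusted p = 3.62e-09).

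Of 18 receptors for cytokines of mucosal immunity, 10 were higher in cTEC, 5 lower and 3 did not pass. The type I interferon receptor subunit Ifnar2 read 57.8, 78.1 and 57.6 CPM in cTEC and 2.51, 2.07 and 3.66 in colon (log2 fold 4.56 ± 0.24, adjusted p = 1.53e-09), and Ifnar1 differed by 0.53. The interferon gamma receptor went the other way, with Ifngr1 at 74.0, 67.6 and 67.3 CPM in cTEC and 326, 270.1 and 276 in colon (log2 fold -2.06 ± 0.25, adjusted p = 6.01e-06) and Ifngr2 at -1.35. Il22ra1, the receptor through which interleukin 22 protects the gut, was at 0.175 and 9.68 CPM in cTEC and colon.

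Interferon-stimulated genes were higher in cTEC almost without exception. Of 37, 36 were higher, against a background of 34.6%, and Trim25 was lower, with a median log2 fold of 5.11. Isg15, a ubiquitin-like modifier, read 232, 325 and 139 CPM in cTEC and 1.30, 0.700 and 1.52 in colon (log2 fold 7.65 ± 0.43, adjusted p = 2.33e-09). Ifit3 read 550.2, 895 and 201 and 0.358, 0.167 and 0.624 (log2 fold 10.52 ± 0.87, adjusted p = 1.01e-07). No cTEC pool overlapped a colon pool for either, which for Ifit3 was a condition of its choice among the largest changes. Irf1, Irf7, Irf9 and Stat2, which transmit the interferon signal, were higher, with log2 folds of 2.45 to 3.61. All 17 interferon-inducible GTPases tested were higher, with Iigp1 at 639 and 3.97 CPM and Irgm1 at 975 and 28.2 CPM in cTEC and colon; several are close copies of each other. The summed level of the 37 genes was 6169 to 14738 CPM in cTEC, 6082 to 11421 in mTEC, 749.5 to 834 in colon, 655 to 1078 in skin and 1174 to 1678 in lung. Skin, made with the kit of cTEC, overlapped colon, and the part of the kit in these sums was not tested.

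The promoters of Isg15, Ifit1, Ifit3, Gbp2 and B2m are printed as examples of the core among genes higher in cTEC. Trim25 and Erap1, which were lower in cTEC, hold it too. Each window runs 5′ to 3′ on the strand of its gene, upstream of the RefSeq start (GRCm38.p6), and the capitals mark the core of the interferon-stimulated response element, GAAANNGAA, or its reverse complement.
Isg15 (chr4:156200858-156200926, gene on the minus strand): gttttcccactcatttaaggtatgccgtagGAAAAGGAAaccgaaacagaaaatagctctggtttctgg
Ifit1 (chr19:34640750-34640818, gene on the plus strand): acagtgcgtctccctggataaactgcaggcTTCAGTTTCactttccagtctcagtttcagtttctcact
Ifit3 (chr19:34583344-34583412, gene on the plus strand): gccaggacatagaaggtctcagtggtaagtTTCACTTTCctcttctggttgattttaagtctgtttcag
Gbp2 (chr3:142620575-142620643, gene on the plus strand): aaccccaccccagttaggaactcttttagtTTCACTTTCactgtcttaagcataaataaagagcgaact
B2m (chr2:122147518-122147586, gene on the plus strand): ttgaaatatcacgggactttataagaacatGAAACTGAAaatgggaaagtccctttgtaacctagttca
The core was found in 18 of 26 interferon-stimulated genes with a promoter in the table (69.2%), against 8.90% of the 13502 promoters of all genes tested. It was found in 0 of 18 colonocyte genes, 3 of 14 class I genes (21.4%) and 3 of 20 genes of drug and xenobiotic handling (15%), and in 11% of the promoters of genes higher by more than 2-fold and 8.24% of those lower. Ifit1 was at 523 and 2.31 CPM in cTEC and colon, Gbp2 at 455 and 6.45 and B2m at 3347 and 267.

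Genes of antigen presentation were higher in cTEC. Of 12 class II genes, 10 were higher, with a median log2 fold of 8.29. H2-Aa, a chain of the class II molecule itself, read 3063, 3528 and 3147 CPM in cTEC and 7.07, 5.37 and 4.50 in colon (log2 fold 9.17 ± 0.43, adjusted p = 4.71e-10). Ciita, the activator of these genes, read 149, 109 and 184 and 1.25, 0.500 and 0.268 (log2 fold 7.78 ± 0.53, adjusted p = 1.37e-08). The 2 genes lower in cTEC were Ctss, the protease that trims the invariant chain in many presenting cells, at 20.7, 10.03 and 21.2 CPM in cTEC and 161, 117 and 149 in colon (log2 fold -3.04 ± 0.38, adjusted p = 6.85e-06), and Ifi30, a thiol reductase. The Ifi30 call (log2 fold -0.50 ± 0.19, adjusted p = 0.0336) was lost under 8 alternatives. Ctsl, the cathepsin known for this role in cTEC, read 3911, 3699 and 5543 CPM in cTEC and 108, 106 and 108 in colon (log2 fold 5.35 ± 0.24, adjusted p = 3.70e-10).

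Of 17 genes of class I presentation, 12 were higher in cTEC, 3 lower and 2 not called. B2m, the light chain, read 3385, 3962 and 2695 CPM in cTEC and 296, 244 and 259.9 in colon (log2 fold 3.65 ± 0.25, adjusted p = 1.80e-08), and H2-K1, a heavy chain, was at 3956 and 486 CPM. Nlrc5, the activator of class I genes, read 61.4, 77.1 and 66.4 and 0.985, 1.03 and 1.07 (log2 fold 6.04 ± 0.37, adjusted p = 5.24e-09). The lower genes were Canx, Pdia3 and Erap1, which act in the endoplasmic reticulum on many proteins or on peptides, with log2 folds of -1.81, -0.77 and -0.65.

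The catalytic sites of the proteasome, which cut those peptides, differed by subunit. Psmb5, the constitutive beta5 site, did not pass, at 25.5 and 20.7 CPM in cTEC and colon (log2 fold 0.30 ± 0.15, adjusted p = 0.0972). The immune form of the site, Psmb8, was at 169 and 13.7 CPM (log2 fold 3.63 ± 0.29, adjusted p = 7.90e-08) and the thymic form, Psmb11, was given with the cortical markers. Psmb9, the immune form of beta1, read 219, 271 and 309 CPM in cTEC and 10.2, 7.50 and 8.34 in colon (log2 fold 4.94 ± 0.25, adjusted p = 1.08e-09). The activators divided, with Psme4 and Psme3 lower in cTEC (log2 folds -2.18 and -1.30) and Psme2 higher (1.71 in gene counts, 0.86 in estimated counts). Beyond the cathepsins named, Ctse, Ctsc, Ctsh, Ctsz and Ctsb were lower in cTEC, with log2 folds of -5.02 to -0.75.

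Of 23 chemokines and cytokines, 15 were higher in cTEC and 3 lower. Il7, a survival factor of thymocytes, read 153, 129 and 148 CPM in cTEC and 7.83, 5.70 and 6.69 in colon (log2 fold 4.41 ± 0.28, adjusted p = 6.96e-09), and Cxcl10, an interferon-induced chemokine, was at 1695 and 27.7 CPM. Ccl28, which draws IgA-secreting cells to mucosae, was lower in cTEC, at 0.619, 0.669 and 0.560 CPM against 139, 114 and 124 in colon (log2 fold -7.66 ± 0.54, adjusted p = 2.06e-08), as was Il18. Among ligands of Notch, BMP, Wnt and EGF pathways, 9 of 21 were higher and 8 lower, beside 34.6% and 30.5% of all genes. The Notch ligand Jag2 was at 446 and 3.94 CPM in cTEC and colon and Dll1 at 174 and 31.1. Wnt4, a Wnt ligand of thymic epithelium, read 338, 483 and 384 and 0.671, 0.467 and 1.11 (log2 fold 9.09 ± 0.53, adjusted p = 3.07e-09). Areg and Hbegf, ligands of the EGF receptor, were higher in colon, Areg at 1.66 and 371 CPM in cTEC and colon and Hbegf at 35.4 and 785, as was Ihh, a hedgehog signal from colonocytes to the stroma, at 0.343 and 67.9.

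Genes of cell division were lower in cTEC. Of 20, 18 were lower and 2 did not pass, with a median log2 fold of -2.30. Mki67, a marker of cycling cells, read 21.6, 8.69 and 14.6 CPM in cTEC and 322, 348 and 301 in colon (log2 fold -4.43 ± 0.52, adjusted p = 3.39e-06). Of 14 genes of the crypt base and the Wnt response, 8 were lower and 4 higher. Lgr5, the stem cell receptor, read 0.333, 0.223 and 0.448 and 33.4, 36.4 and 35.1 CPM (log2 fold -6.68 ± 1.25, adjusted p = 2.95e-04), whereas Nkd1, Tcf7, Sox9 and Rnf43 were higher in cTEC.

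**Figure D5:**
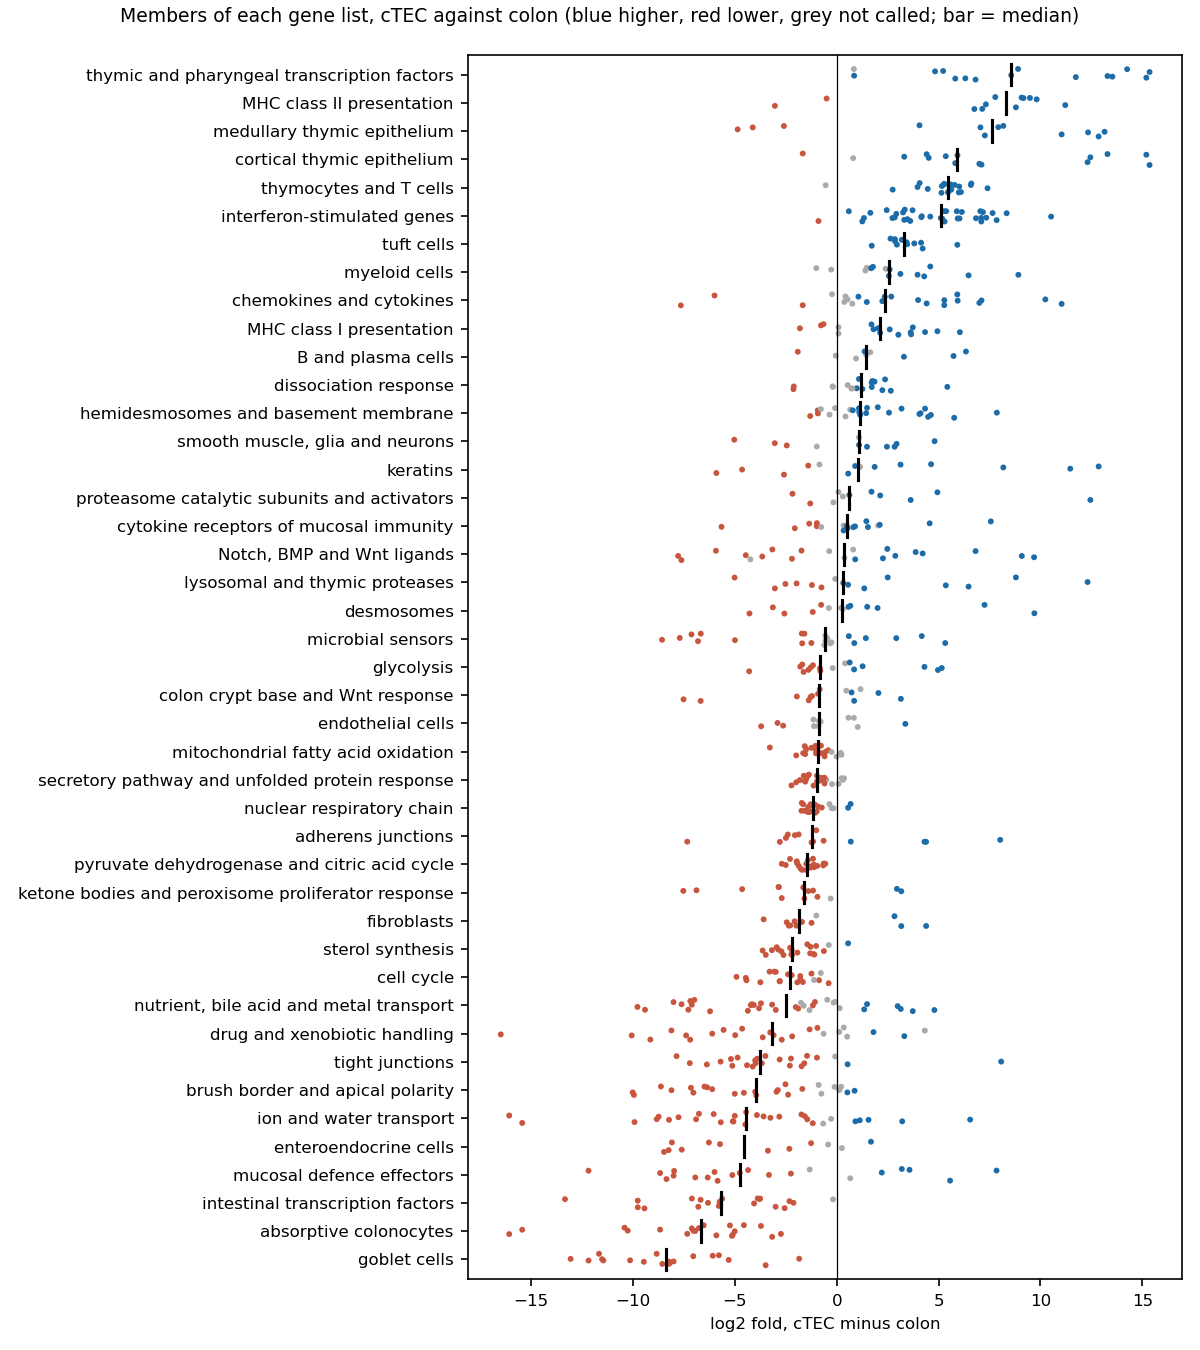
Log2 fold of cTEC over colon (horizontal axis) for the tested members of each gene list with more than 5 members, ordered by the median (black bar); blue points were higher in cTEC, red lower and grey not called. Antigen presentation and interferon lists lie to the right, and transport, brush border, tight junction and goblet lists to the left.

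Markers of other cells were read as a check on the sort. Genes of the thymic medulla were present in cTEC: the 12 listed summed to 2373 to 4503 CPM in cTEC, 7670.2 to 9435 in mTEC and 2153 to 2669 in colon, where Cldn3 and Cldn4 made up most. Aire and Ccl21a averaged 44.3 and 849.5 CPM in cTEC and 481 and 1743 in mTEC. The gene counts held 17.0% of the estimated Ccl21a reads in cTEC and 18.5% in mTEC. Fezf2 had no read in colon. Krt5, Krt14 and Ccl21a are themselves among the 12 and made up most of the sum in cTEC. The part of medullary cells in their values, and in those of Reg3g and Fcgbp, was not tested. All 12 tuft cell genes were higher in cTEC (34.6% of all genes were), with sums of 169.7 to 506 CPM in cTEC and 35.8 to 51.0 in colon. Colon was the lowest of the groups, as the sums were 494 to 672 CPM in mTEC, 319 to 526 in skin and 323 to 379 in lung.

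Of 20 genes of thymocytes and T cells, 19 were higher in cTEC, with sums of 179 to 243 CPM in cTEC and 30.7 to 43.3 in colon; Rag2 and Ptcra had no read in colon. Cd8a, the T-cell coreceptor, read 20.8, 15.8 and 15.6 CPM in cTEC. Myeloid genes summed to 95.5 to 153 CPM in cTEC and 9.40 to 16.8 in colon, B-cell genes to 44.3 to 129.9 and 16.3 to 55.0, endothelial genes to 23.7 to 31.1 and 18.7 to 70.0, and fibroblast genes to 761 to 954 and 239.7 to 547. Fn1 and Dcn, at 415 and 318 CPM, made up most of the fibroblast sum in cTEC, whereas 8 of the 12 genes, Pdgfra and Col1a1 among them, were lower there and 3 higher (median log2 fold -1.85). Genes of smooth muscle, glia and neurons summed to 474 to 633 CPM in cTEC and 45.6 to 91.0 in colon. Erythroid genes summed to at most 5.59 CPM in either group. For comparison, H2-Aa alone averaged 3246 CPM in cTEC, and the part of other cells in the class II or interferon values was not tested.

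Genes induced by tissue dissociation were high in both groups and higher in cTEC. Of 18, 11 were higher and 2 lower, and their sums were 25449 to 58114 CPM in cTEC and 12774 to 18701 in colon. Fos read 5183, 7437 and 3169 CPM in cTEC and 1299, 1627 and 1874 in colon (log2 fold 1.72 ± 0.31, adjusted p = 2.07e-04), and Socs3, an inhibitor of cytokine signalling, read 1797, 2604 and 969.6 and 41.4, 31.9 and 51.4 (log2 fold 5.43 ± 0.43, adjusted p = 6.44e-08). Their part in the other differences was not tested.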

How the data were processed

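Poly-A RNA-seq gave 15 libraries, 3 in each of 5 groups; the 6 of cTEC and colon were compared. Per the submitters' processing notes, bcl2fastq 2.20, STAR 2.5.1b, RSEM 1.2.28 and GRCm38 were used; no source used here gives the annotation release. The authors deposited raw read counts per gene (the sense-strand column was used), and RSEM expected counts, TPM and transcript length in bases. Expected counts were rounded for testing. Of 50600 genes, 50376 were matched by identifier to GENCODE M21 for symbols and coordinates.

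Genes were kept with filterByExpr by group, leaving 19107. Counts were scaled by TMM and tested with edgeR 4.0.16 (limma 3.58.1, R 4.3.3) in 1 quasi-likelihood fit of the 15 libraries; the standard error is the absolute log2 fold over the square root of F. DESeq2 1.42.0 was an alternative. Adjusted p-values are Benjamini-Hochberg. Two-sided tests measured spread among pools; nothing else separates biological from technical variation. Counting intervals cover counting error only, at 95%.

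Genes named were the 10 largest changes per direction, the 10 highest TPM per group, up to 2 per list and direction by p, and fixed markers. The largest changes had to pass the 2-fold test, show no overlap of cTEC and colon pools, and not be clones, predicted genes or pseudogenes. The TPM ranking covered protein-coding genes outside the mitochondrial genome. Further list members were named after their values were seen, and families were formed by symbol after the data were seen. The comparison and gene lists were chosen with earlier results of these data known. Of 754 listed genes, 753 were found and 748 tested; 52 are in more than 1 list. Promoters came from RefSeq (GRCm38.p6). Some genes of these lists are counted but not reported here by name.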

Additional observations from a re-analysis of the deposited data

How the results depend on the processing

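The 4 counts over all genes stayed within 1.5 times their value under all 16 alternatives, including the count of genes keeping at least 50% of their estimated reads, which was chosen after seeing the data (18230 tested, 6332 higher and 5603 lower). Leaving out 1 pool at a time gave 5877 to 6477 genes higher in cTEC, 5324 to 5543 lower, 3909 to 4381 higher by more than 2-fold and 2869 to 3068 lower by more than 2-fold. Other settings gave 6306 to 7422, 5102 to 6125, 3887 to 4799 and 2457 to 3306. Upper quartile scaling gave the largest share of higher calls, 59.26% against 53.13%. With a replicate block there were 6355 genes higher and 5738 lower. Same-numbered pools had correlations of deviations of -0.0548, -0.0051 and -0.0067. With 3 pools a side, these values cannot show whether the numbers pair the samples. RSEM expected counts reversed Actg1 to -1.57 (adjusted p = 2.79e-05, edgeR) and Cycs to -1.23 (6.07e-06), and left Gapdh without a call at -0.019 (0.92). Of the other gene values, 2716 kept their call and 23 lost it; without cTEC pool 3 the lost calls were Ifi30, Igha and Cnn1. Of list counts and medians, 34 and 22 moved, and 1286 and 638 did not. Kit and tissue cannot be told apart, the depth of the cTEC libraries was lower, and 3 pools a side limit precision.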
